A study of Rattus norvegicus with 9 samples.

Results

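The choroid plexus is the secretory tissue of the brain ventricles, and 9 genes typical of its epithelium were followed library by library in rat brain after a stroke. The genes were Ttr, Folr1, Kl, Otx2, Aqp1, Clic6, Kcne2, Kcnj13 and Slc4a5, taken by symbol from the 22888 genes of the deposited table, and all 9 were found and passed the filter on low values. They had been chosen by their measured levels in single libraries of these same data, so their levels and differences are given as a description. Tests were fitted across all genes for background, and their counts of calls among the 9 are printed beside that background without being read as results about these genes.

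RNA was sequenced from brain tissue of male Sprague-Dawley rats in 9 libraries, 3 per group. The astaxanthin group (astaxanthin 1, 2 and 3) received astaxanthin, a carotenoid antioxidant, by gavage at 45 mg/kg for 7 days before occlusion of the middle cerebral artery on a single side, and the labels call this the medium dose. The model group (model 1, 3 and 4) had the occlusion alone, and the sham group (sham 1, 3 and 5) served as the control. Tissue was taken 1 day after the occlusion. The labels name the brain with no region or side, do not say what the model and sham groups were given in place of astaxanthin, and do not say that each library is a separate animal, so p-values measure only the spread between these samples.

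The epithelium of the choroid plexus makes the cerebrospinal fluid by moving sodium, chloride, bicarbonate and water from the blood side to the ventricle. It also makes and releases carrier proteins, of which transthyretin, the product of Ttr, is the best known and carries thyroxine and the retinol-binding protein. Folr1 is the folate receptor that brings folate into the fluid, Kl encodes klotho, a co-receptor for a hormone of the fibroblast growth factor family, and Otx2 is a homeobox transcription factor that the epithelium needs to form. Aqp1 is a water channel, Clic6 belongs to the chloride intracellular channel family, Kcne2 is an accessory subunit of potassium channels, Kcnj13 is an inwardly rectifying potassium channel, and Slc4a5 is a sodium bicarbonate cotransporter of the side that faces the ventricle.

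All 9 members matched a RefSeq gene of the GRCr8 assembly, and a promoter window was read for 5 of them; the others were Folr1, Clic6, Otx2 and Kcne2. The 4 windows below are shown because Ttr gave most of the members' reads, Ttr, Kl and Kcnj13 hold a short form of the letters that Otx2 is known to prefer, and Aqp1 had another pattern over the libraries than the rest. Each window is the 250 bases before the RefSeq start, on the gene's own strand: chr18:12218508-12218757 on the plus strand for Ttr, chr12:5325753-5326002 on the plus strand for Kl, chr9:95518987-95519236 on the minus strand for Kcnj13 and chr4:85812534-85812783 on the plus strand for Aqp1. Capitals mark TAATC on either strand and the TATA box TATAAA.
Ttr: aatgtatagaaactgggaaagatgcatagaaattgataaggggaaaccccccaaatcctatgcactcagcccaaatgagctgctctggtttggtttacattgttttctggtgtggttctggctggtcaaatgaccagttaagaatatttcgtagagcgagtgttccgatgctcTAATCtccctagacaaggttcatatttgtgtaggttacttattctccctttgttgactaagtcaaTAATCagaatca
Kl: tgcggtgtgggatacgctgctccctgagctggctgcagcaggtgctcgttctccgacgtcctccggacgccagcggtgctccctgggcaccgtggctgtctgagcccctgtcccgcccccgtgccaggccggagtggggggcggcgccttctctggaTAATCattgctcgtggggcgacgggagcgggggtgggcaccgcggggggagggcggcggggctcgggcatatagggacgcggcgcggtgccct
Kcnj13: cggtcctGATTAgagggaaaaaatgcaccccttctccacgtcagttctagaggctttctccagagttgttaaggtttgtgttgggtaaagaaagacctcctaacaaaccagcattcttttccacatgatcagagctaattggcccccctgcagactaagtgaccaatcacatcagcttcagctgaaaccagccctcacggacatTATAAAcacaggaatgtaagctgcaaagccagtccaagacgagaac
Aqp1: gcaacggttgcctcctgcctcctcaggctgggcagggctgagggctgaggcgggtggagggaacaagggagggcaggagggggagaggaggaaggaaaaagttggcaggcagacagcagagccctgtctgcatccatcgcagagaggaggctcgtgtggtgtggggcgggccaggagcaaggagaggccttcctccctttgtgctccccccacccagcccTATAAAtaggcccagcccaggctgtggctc
TAATCC, the core that Otx2 prefers, was in 0 of the 5 member windows in 2 of 42 windows of other choroid plexus genes and in 6.34% of all 33469 rat windows of this length, both strands counted. Its shorter form TAATC, which TAATCC contains, was in 3 of the 5 windows, in 4 of the 42 windows of other choroid plexus genes and in 20.5% of all windows. In Ttr it lay 77 to 73 and 12 to 8 bases before the start, in Kl 93 to 89 bases before it, and in Kcnj13 243 to 239 bases before it on the other strand. TATAAA lay 30 to 25 bases before the start of Aqp1 and 46 to 41 bases before that of Kcnj13, and was in 5 of the 42 and in 12.9% of all windows. A match is a description of letters in these windows only.

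The values are normalized reads: whole reads divided by 1 factor per library, as the authors deposited them. The libraries held 52268061 to 76311125 reads, and a count of 0 allows up to 3 reads, which is 2.45 to 3.75 normalized reads (counting error only). All 9 markers of the cortex were detected in every library. Some libraries stand apart for reasons the labels do not give. In astaxanthin 1, the 18 measured markers of the cerebellum were all at their highest, with a sum of 361356 normalized reads, against 6111 and 8483 in the other astaxanthin libraries, 9357 to 16373 in the model libraries and 5628 to 11086 in the sham libraries. In model 3, the erythrocyte list summed to 103401 normalized reads, against at most 25927 in any other library, and the list of meninges and stroma to 107651, against at most 19518.

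Among the carrier and receptor genes, Ttr (rn7, chromosome 18, 11943789 to 11951008) had 178856, 6464 and 9379.8 normalized reads in astaxanthin 1, 2 and 3, against 14.9, 459 and 14199 in model 1, 3 and 4, and 487, 100.1 and 108678 in sham 1, 3 and 5. The groups overlapped, and 1 library in each of the astaxanthin and sham groups was far above the rest. In astaxanthin 1 its level was 368 times, and in sham 5 it was 223 times, the median of the other 7 libraries. The highest and lowest libraries differed 12007-fold, since model 1 held 16 Ttr reads in all. As a share of all reads, Ttr made up 0.288% in astaxanthin 1 (95% Wilson interval 0.287 to 0.290%) and 0.169% in sham 5 (0.168 to 0.170%), so these libraries differed by more than counting error. In bulk tissue, fewer cells of a type and less RNA per cell cannot be told apart.

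Folr1 (chromosome 1, 156219460 to 156230667) had 1415, 72.0 and 142 normalized reads in astaxanthin 1, 2 and 3, against 14.9, 26.8 and 116 in model 1, 3 and 4, and 0, 4.94 and 833 in sham 1, 3 and 5. Again astaxanthin 1 and sham 5 led, and the other sham libraries were the lowest of all 9. Folr1 lies within the wide span the table gives to Dcun1d3, which had 677 to 962 normalized reads. Kl (chromosome 12, 490399 to 530080) had 3038, 79.8 and 176 normalized reads in the astaxanthin libraries, against 767, 243 and 220.1 in the model libraries, and 81.3, 49.4 and 1581 in the sham libraries. Next after astaxanthin 1 and sham 5 came model 1, which was the lowest of all for Ttr.

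Otx2 (chromosome 15, 21943191 to 21953416) had 1553, 22.4 and 105 normalized reads in astaxanthin 1, 2 and 3, against 41.9, 56.6 and 63.4 in model 1, 3 and 4, and 38.8, 0 and 402 in sham 1, 3 and 5. It kept the order of the leading libraries, but the gap between them was the widest of the members, with astaxanthin 1 at 3.87 times sham 5, against 1.65 times for Ttr.

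Of the genes of water and ion transport, Slc4a5 (chromosome 4, 115725592 to 115810323) had 4436, 19.5 and 174 normalized reads in astaxanthin 1, 2 and 3, against 0, 28.8 and 206 in model 1, 3 and 4, and 47.5, 29.6 and 1564 in sham 1, 3 and 5. Clic6 (chromosome 11, 31737813 to 31780061) had 3713, 103 and 236 normalized reads in the astaxanthin libraries, against 73.6, 135 and 374 in the model libraries, and 46.3, 14.8 and 1698 in the sham libraries. Both genes were highest in astaxanthin 1 and second in sham 5, and in both, as in Ttr, model 4 was the highest of the other 7. Kcnj13 (chromosome 9, 88063003 to 88071112) had 1935, 37.0 and 52.3 normalized reads in the astaxanthin libraries, against 14.9, 151 and 162 in the model libraries, and 63.8, 95.1 and 934 in the sham libraries. Its leading libraries were the same, while astaxanthin 2 and 3 lay below every sham library and below model 3 and 4. Kcnj13 lies within Gigyf2, whose own level stayed between 3319 and 5028 normalized reads.

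Kcne2 (chromosome 11, 31295614 to 31530043) had 1599, 186 and 297 normalized reads in astaxanthin 1, 2 and 3, against 97.8, 146 and 153 in model 1, 3 and 4, and 110.1, 198 and 911 in sham 1, 3 and 5. In the libraries other than astaxanthin 1 and sham 5 it lay between 97.8 and 297 normalized reads, and of the members it alone had every astaxanthin library above every model library. Its span overlaps Slc5a3 and Mrps6, and whether reads were counted by strand is not given in the sources used here.

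Aqp1 (chromosome 4, 84482512 to 84494690) was the exception. It had 3015, 581 and 355 normalized reads in astaxanthin 1, 2 and 3, against 2531, 8486 and 607 in model 1, 3 and 4, and 134, 367 and 1153 in sham 1, 3 and 5. The highest library was model 3, and sham 5 came behind model 1. Besides the choroid plexus, Aqp1 is known from erythrocytes and from vessels outside the brain, and model 3 is the library in which the erythrocyte list was highest in 5 of its 5 tested genes and the list of meninges and stroma in 13 of 17. Model 3 was also the highest in 12 of 39 other genes known from the choroid plexus. The share of all genes highest in model 3 was not counted, so these counts have no background beside them. Hba-a2, a hemoglobin alpha gene, had 101487 normalized reads in model 3 and 25367 in model 1, the highest of all libraries and the same pair of model libraries in which Aqp1 was high. The part of blood and meninges in the Aqp1 levels was not tested.

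**Figure D1:**
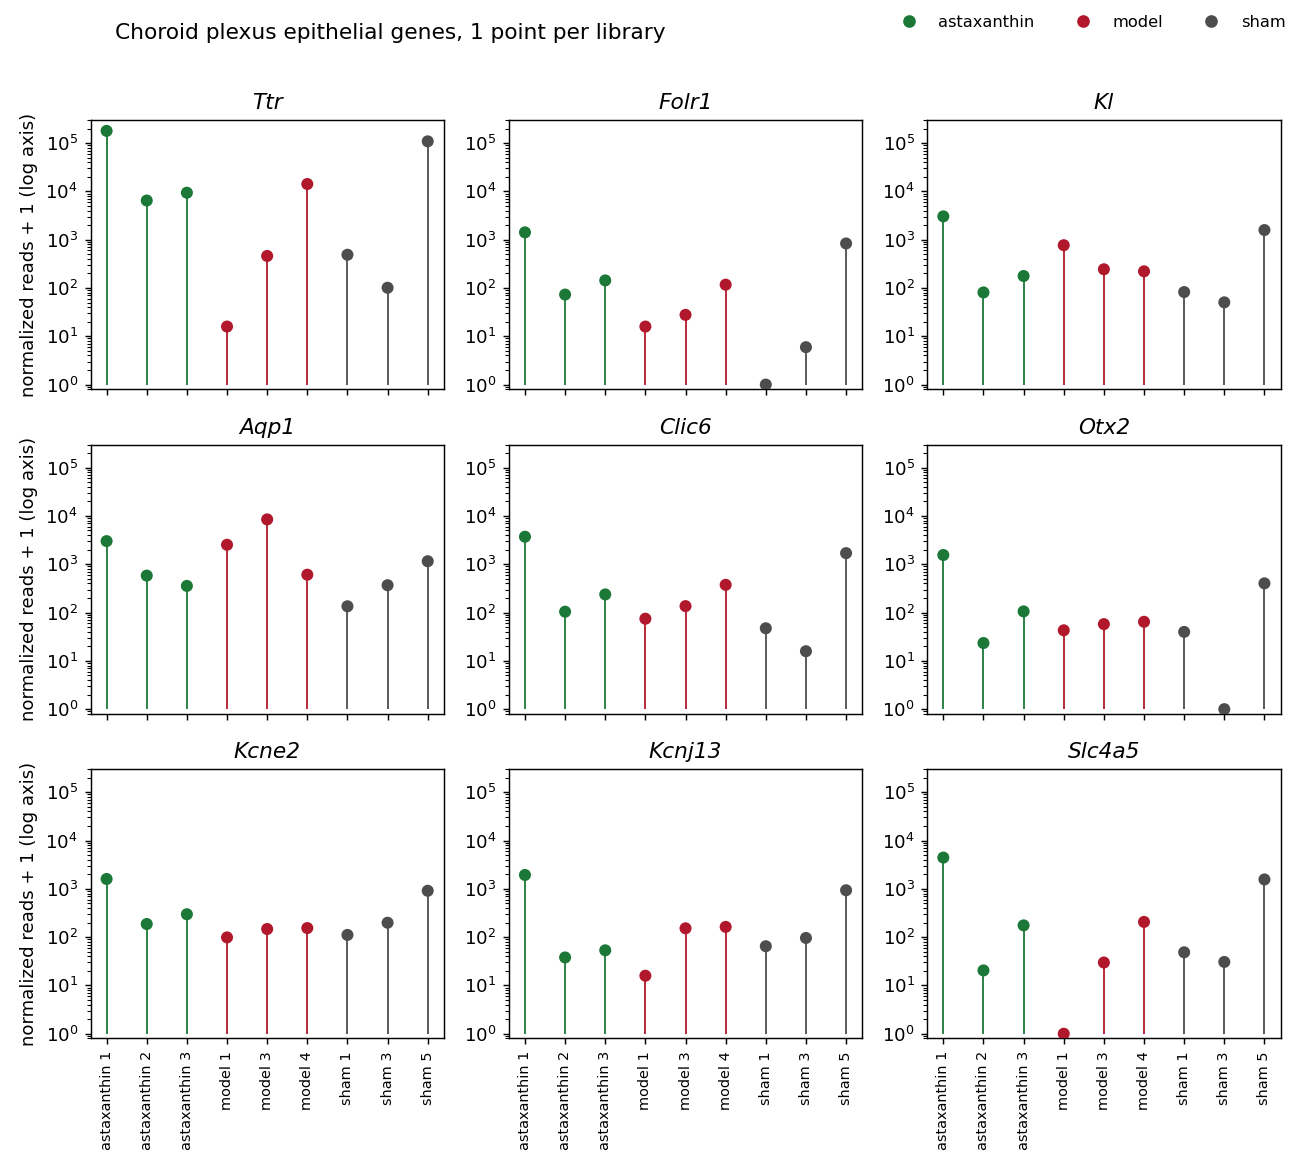
Normalized reads + 1 of the 9 choroid plexus epithelial genes (y, log axis) in each of the 9 libraries (x), 1 point per library, with astaxanthin in green, model in red and sham in grey. In 8 of 9 panels astaxanthin 1 is the highest point and sham 5 the second; in the Aqp1 panel model 3 leads with 8486 normalized reads.

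Thus 8 of the 9 genes were highest in astaxanthin 1 with sham 5 second. Of all 17770 genes tested, 21.2% were highest in astaxanthin 1, 4.24% had astaxanthin 1 and sham 5 as their highest pair and 3.18% had them in that order. Since the genes were picked for these levels, nothing follows from the gap between those shares. As a percentage of each gene's level in astaxanthin 1, the level in sham 5 ran from 25.9% for Otx2 to 60.8% for Ttr, with a median over the 9 genes of 48.3%. The medians in the other libraries were 2.78% and 6.37% in astaxanthin 2 and 3, 1.98%, 3.64% and 8.19% in model 1, 3 and 4, and 2.50% and 0.668% in sham 1 and 3.

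**Figure D2:**
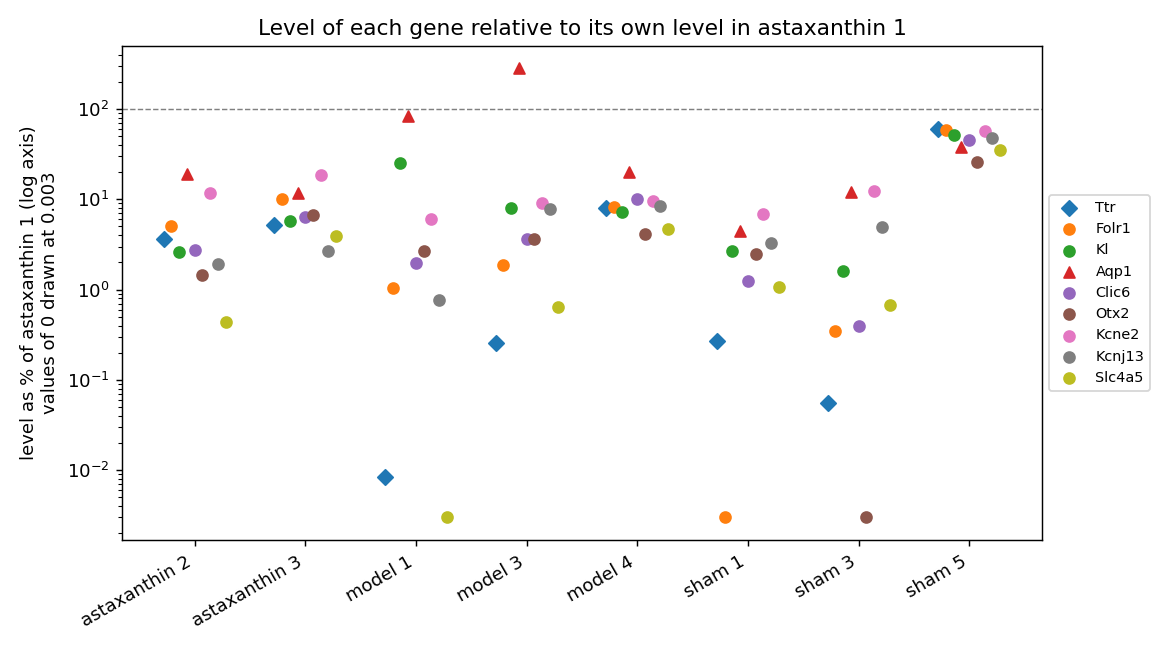
Level of each gene as a percentage of its own level in astaxanthin 1 (y, log axis, values of 0 drawn at 0.003) in the other 8 libraries (x), with Ttr as diamonds and Aqp1 as triangles. In sham 5 the 9 genes lie close together, between 25.9% and 60.8%, while in model 1 they spread from 0% for Slc4a5 to 83.9% for Aqp1.

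Per kilobase of exon, with the lengths of the deposited transcript table, the genes could be set against each other. In astaxanthin 1, Ttr had 243751 normalized reads per kilobase, 149.9 times the next gene, Clic6, with 1626. Kcnj13, Aqp1, Folr1 and Slc4a5 followed with 1501, 1119.8, 1083 and 1003, and Kl, Kcne2 and Otx2 came last with 839, 814 and 589 normalized reads per kilobase. Sham 5 had the same leading genes, with Ttr at 150697 normalized reads per kilobase, 199 times Clic6 at 756. Ttr was thus the highest member per kilobase in both libraries, and also in astaxanthin 2 and 3, model 4 and sham 1. In sham 3 it stood level with Aqp1, both at 138 normalized reads per kilobase. In model 1 and model 3 Aqp1 was highest instead, with 954 and 3265 normalized reads per kilobase, and Ttr had 20.6 and 648.

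The makeup of the members' reads therefore fell into unlike patterns between libraries. Ttr gave 89.6%, 85.4% and 85.9% of the members' reads in astaxanthin 1, 2 and 3, against 0.419%, 4.72% and 88.2% in model 1, 3 and 4, and 48.3%, 11.7% and 92.3% in sham 1, 3 and 5. It was above 85% in 5 of 9 libraries and below 50% in the other 4. These 5 libraries are set out next because Ttr was high enough in them to serve as a base, a choice that itself limits how large the other members can be per Ttr read. For every 1000 Ttr reads, Clic6 had 20.8, 16.0 and 25.2 reads in astaxanthin 1, 2 and 3, 26.3 in model 4 and 15.6 in sham 5. Kl had 17.0, 12.3, 18.7, 15.5 and 14.5 reads per 1000 Ttr reads in the same libraries, and Folr1 had 7.91, 11.1, 15.2, 8.16 and 7.67. The other members spread more widely over the same 5 libraries. Aqp1 had 10.6 to 89.9 reads per 1000 Ttr reads, Kcne2 8.38 to 31.7, Otx2 3.46 to 11.2, Kcnj13 5.58 to 11.4 and Slc4a5 3.01 to 24.8. In model 1 the same quotients were out of proportion, with 51500 Kl reads and 4938 Clic6 reads per 1000 Ttr reads, because Ttr had only 16 reads there.

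Transcript values changed the picture for Kcne2. Of its 4 transcripts, Kcne2-204 (chromosome 11, 31523332 to 31530043) had 1196, 0 and 3.24 normalized reads in astaxanthin 1, 2 and 3, against 0.920, 0 and 39.4 in model 1, 3 and 4, and 0, 0 and 671 in sham 1, 3 and 5. It had at most 4 reads in 6 of 9 libraries, and the highest after astaxanthin 1 and sham 5 was model 4. It took 76.9% of the gene's reads in astaxanthin 1 (95% Wilson interval 74.6 to 78.9%), 26.0% in model 4 (20.0 to 33.1%) and 74.4% in sham 5 (71.4 to 77.2%). The other Kcne2 transcripts together had 359.9, 182 and 291 normalized reads in astaxanthin 1, 2 and 3, against 95.7, 147 and 112 in model 1, 3 and 4, and 108, 194 and 231 in sham 1, 3 and 5, a range of 3.76-fold over all libraries. So the separation of the astaxanthin from the model libraries in Kcne2 was also present in the transcripts other than Kcne2-204. How reads were divided among overlapping transcripts is not given in the sources used here, and intervals cover counting error only.

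**Figure D3:**
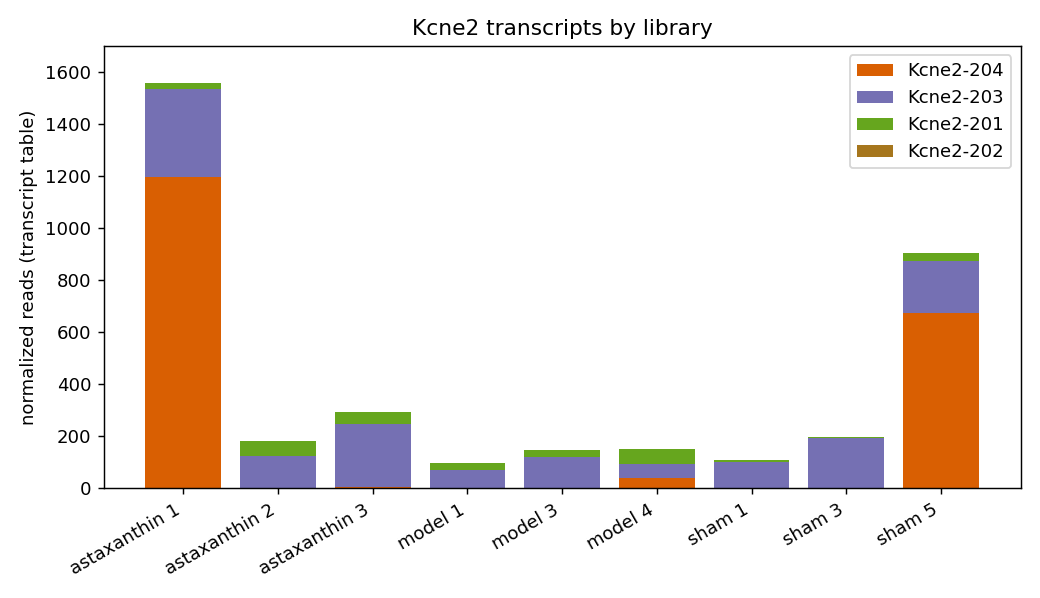
Normalized reads of the 4 Kcne2 transcripts (stacked bars, linear axis from 0) in each library. Kcne2-204, in orange, fills most of the bars of astaxanthin 1 and sham 5, with 1196 and 671 normalized reads, and has at most 4 reads elsewhere except in model 4.

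Slc4a5 and Otx2 were the other members with more than 1 transcript in the table. Slc4a5-203 carried all Slc4a5 reads in astaxanthin 2, model 3, sham 1 and sham 3, and 70.7% in astaxanthin 1, 47.6% in model 4 and 77.6% in sham 5. Slc4a5-201 had 1092, 0 and 10.5 normalized reads in astaxanthin 1, 2 and 3, against 0, 0 and 102 in model 1, 3 and 4, and 0, 0 and 279.8 in sham 1, 3 and 5. It was therefore seen in the 4 libraries with the highest Slc4a5 level. Otx2-201 gave 48.3% of the Otx2 reads in astaxanthin 1 and 33.0% in sham 5, and Otx2-202 the rest. In the other libraries its share varied, at 1 of 23 reads in astaxanthin 2 and 0 of 128 in astaxanthin 3, 35 of 45, 12 of 55 and 28 of 70 in model 1, 3 and 4, and 31 of 31 in sham 1, with no Otx2 read in sham 3.

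Between groups, the spread within a group was larger than most differences. In 21 of the 27 combinations of gene and group the SD exceeded the mean. Ttr averaged 64899.9 ± 98699.6 normalized reads in the astaxanthin group, 4891 ± 8064 in the model group and 36422 ± 62576 in the sham group (SD, n = 3 each). Clic6 averaged 1351 ± 2047, 194 ± 159 and 586 ± 963 normalized reads in the astaxanthin, model and sham groups (SD, n = 3 each). Group means fell in the order astaxanthin, sham and model for 8 of the 9 genes. In these 8 genes astaxanthin 1 and sham 5 were the highest of their groups, so those means rest largely on 1 library each. On the log2 scale the order differed already with all libraries, where model against sham was positive for 5 of the 9 genes and negative for 4. Without astaxanthin 1 and sham 5, this log2 difference was positive for 6 and negative for 3. Aqp1 averaged 1317 ± 1475 normalized reads in the astaxanthin group, 3874 ± 4108 in the model group and 551 ± 534 in the sham group (SD, n = 3 each).

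On the scale of mean log2(normalized reads + 1), astaxanthin against model gave a median difference of 1.53 over the 9 genes, against -0.01 over all genes tested. It was positive for 8 genes, from 0.02 ± 1.58 for Kl to 5.56 ± 3.01 for Ttr, and -1.46 ± 1.16 for Aqp1 (SE). Across all genes, limma called 0.0% at an adjusted p under 0.05 in this comparison, and 0 of the 9 genes. At an unadjusted p under 0.05 limma passed 8.89% of all genes and 0 of the 9. At an adjusted p under 0.05, edgeR called 0.0% of all genes and 0 of the 9. DESeq2 called 1.16% and 0 of the 9 at that threshold, with 4 genes (Ttr, Kl, Clic6 and Kcnj13) given no adjusted p. Every astaxanthin library lay above every model library in Kcne2 alone, 1 of 9, beside 5.72% of all genes, and no member had the reverse, beside 7.24%. Without astaxanthin 1 and sham 5, the median over the 9 genes was 0.01, with 5 positive and 4 negative; without astaxanthin 1 alone it was likewise 0.01, and without astaxanthin 2 it was 2.59. With both astaxanthin 1 and sham 5 left out, Kl had a difference of -1.53 ± 0.68 and Aqp1 of -2.37 ± 1.05. In both remaining astaxanthin libraries these 2 genes lay below every model library, beside 11.2% of all genes. Astaxanthin 1 was left out because most members were highest in it, so this is a description and no test. The 2 remaining libraries of Kcne2 stayed above every model library, with a difference of 0.85 ± 0.45, beside 10.4% of all genes.

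Astaxanthin against sham gave a median difference of 1.15 over the 9 genes, against 0.04 over all genes tested. It was positive for 8 genes, up to 3.85 ± 2.27 for Folr1, and -0.19 ± 1.68 for Kcnj13 (SE). Limma called 0.276% of all genes, or 49 (0.236% higher and 0.0394% lower), and 0 of the 9. At an unadjusted p under 0.05 it passed 12.3% of all genes and 0 of the 9. At an adjusted p under 0.05, edgeR called 0.0% of all genes and 0 of the 9. DESeq2 called 4.45% and 0 of the 9 at that threshold, again with no adjusted p for the same 4 genes. No member had groups without overlap, beside 13.0% of all genes higher and 11.4% lower. Without astaxanthin 1 and sham 5 the median was 1.03. In that set Ttr, Folr1 and Clic6 were above both remaining sham libraries in both remaining astaxanthin libraries, beside 27.5% of all genes, and Kcnj13 was below, beside 25.1%. The differences were then 5.13 ± 2.77 for Ttr, 5.39 ± 1.25 for Folr1 and 2.52 ± 0.93 for Clic6. Folr1 had 0 and 4 reads in sham 1 and 3, so the size of its difference depends on the pseudocount. Both libraries were left out because 8 of the 9 members were highest in them, so these values are a description and no test. With 1 library left out, the median of the members was 0.24 without astaxanthin 1, 2.73 without astaxanthin 2, 1.78 without astaxanthin 3, 0.39 without sham 1, 0.49 without sham 3 and 2.71 without sham 5.

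Model against sham gave a median difference of 0.53 over the 9 genes, against 0.02 over all genes tested, with 5 positive and 4 negative. The differences ran from -2.85 ± 2.51 for Slc4a5 to 2.61 ± 1.16 for Aqp1 (SE). Limma called 4.77% of all genes, or 848 (3.45% higher and 1.32% lower), and 0 of the 9. At an unadjusted p under 0.05 it passed 23.8% of all genes and 0 of the 9. At an adjusted p under 0.05, edgeR called 4.24% of all genes and 0 of the 9. DESeq2 called 16.4% of all genes and 1 of the 9, which was Aqp1, with no adjusted p for the same 4 genes. The direction depended on the scale: edgeR, which compares arithmetic means, put 8 of the 9 genes lower in the model group, with a median of -1.60. Without sham 1 the median on the log scale was -0.92, without sham 3 it was -1.22, without model 4 it was -0.11 and without sham 5 it was 2.43. Without astaxanthin 1 and sham 5 the median was likewise 2.43. In that set Folr1, Kl, Aqp1, Clic6 and Otx2 were above both remaining sham libraries in all 3 model libraries, beside 23.1% of all genes. The libraries left out were those in which 8 of the 9 members were highest, so this rise and separation follow from that choice and are no result. With all libraries no member had groups without overlap, beside 19.0% of all genes higher and 16.6% lower. The comparisons share libraries, so their values are not independent of each other.

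**Figure D4:**
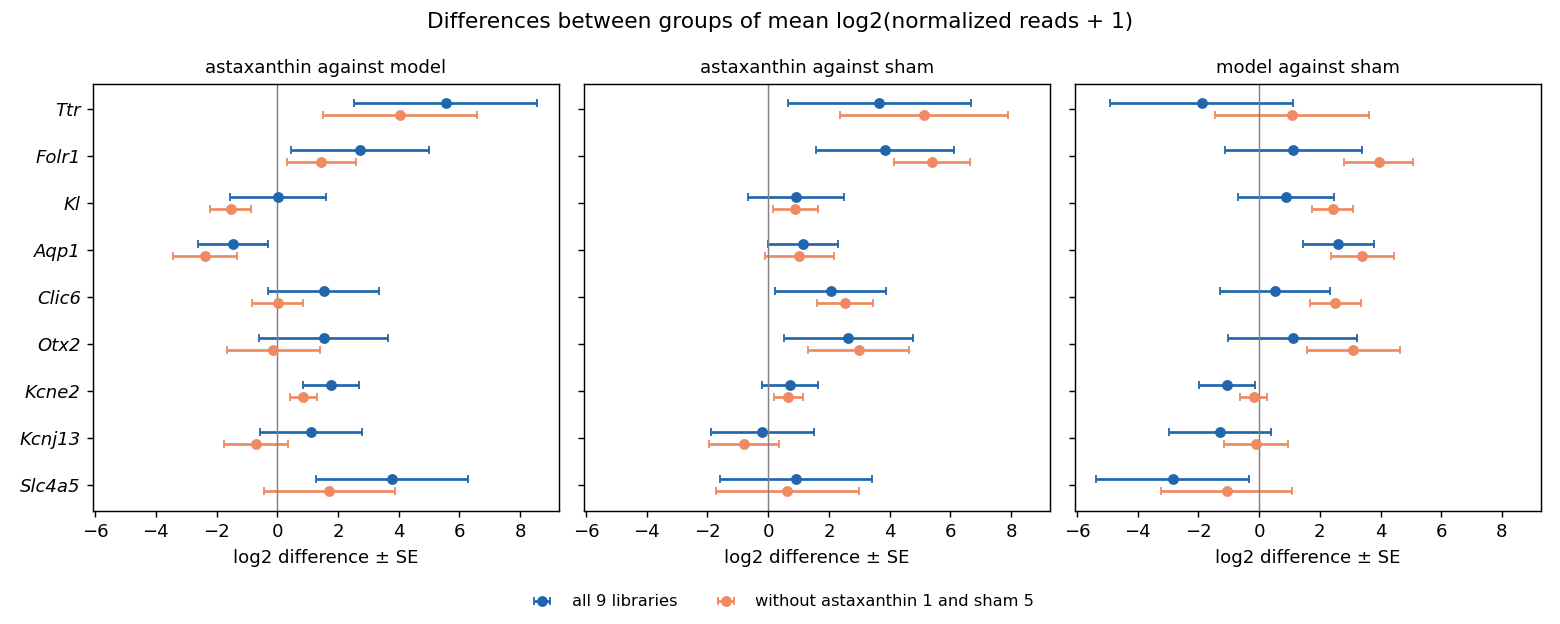
Difference between groups of mean log2(normalized reads + 1) ± SE (x) for each gene (y) in the 3 comparisons, with all 9 libraries in blue and without astaxanthin 1 and sham 5 in orange. In model against sham, Folr1 lies at 1.13 with all libraries and at 3.93 without the 2 libraries. The 2 libraries were left out because 8 of the 9 genes were highest in them, so this shift follows from that choice.

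Other genes known from the choroid plexus epithelium were followed as a list of 45, of which 39 were measured and tested. Limma called 0 of them in each of the 3 comparisons. At an unadjusted p under 0.05 limma passed 3 in astaxanthin against model, 1 in astaxanthin against sham and 4 in model against sham. The shares of all genes were 8.89%, 12.3% and 23.8%. EdgeR called 0 in each, and DESeq2 0, 0 and 2, beside 1.16%, 4.45% and 16.4% of all genes by DESeq2. The listed genes had median log2 differences of 0.25, 0.42 and 0.02. Without astaxanthin 1 and sham 5, limma called 1 of them in model against sham and 0 in the others. This was F5, which encodes coagulation factor V (log2 difference 3.38 ± 0.55, limma, adjusted p = 0.036). F5 had 45.0, 39.5 and 1803 normalized reads in sham 1, 3 and 5, against 227, 629 and 633 in model 1, 3 and 4. Sham 5 was left out as a library where choroid plexus genes were high, so this call follows from that choice and is no test. By library, 17 of 39 were highest in astaxanthin 1 and 8 in sham 5, beside 21.2% and 8.56% of all genes. A further 12 were highest in model 3, for which the share of all genes was not counted. Enpp2, which encodes autotaxin, a secreted lysophospholipase, was at 61153 in astaxanthin 1, 38924 in sham 5 and 2466 to 15405 normalized reads in the other 7. Trpm3, a cation channel, had 16565 in astaxanthin 1 and 6517 in sham 5, against 1829 to 5275 elsewhere. Igf2, an insulin-like growth factor that the meninges also make, had 17932 in astaxanthin 1, 17422 in model 3 and 10120 in sham 5. Slc13a4, a sulfate transporter, had 5090 in astaxanthin 1, 6763 in model 3 and 3171 in sham 5. Htr2c, a serotonin receptor that neurons also carry, was highest in sham 5 with 11383 normalized reads and had 3434 in astaxanthin 1.

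The genes nearest to the members were found among 14517 genes with a mean of at least 50 normalized reads, by the root mean square difference between log2 profiles centred on their own mean over the 9 libraries. The nearest were Pla2g5 with 0.77, Calml4 with 0.79, F5 with 0.93, Sostdc1 with 1.04, Krt18 and C1qtnf3 with 1.05, Cldn1 with 1.08 and Mfrp with 1.09. For comparison, Clic6 lay at 0.50 from the mean of the other 8 members, Kcnj13 at 1.21, Aqp1 at 2.50 and Ttr at 2.84. Sostdc1, a secreted antagonist of bone morphogenetic proteins, was at 2361 in astaxanthin 1, 1433 in sham 5 and at most 90.6 normalized reads in the other 7. Mfrp, a membrane protein related to the frizzled receptors, had 5650 in astaxanthin 1 and 3762 in sham 5, against at most 269. The remaining 4 of the 12 nearest, Lrp2, Irx3, Uncx and Il16, were also highest in astaxanthin 1 and were 4.65 to 20.1 times as high there as in sham 5. In Irx3 and Il16 the second library was astaxanthin 3, with 121 and 1405 normalized reads, against 107 and 1267 in sham 5. Astaxanthin 1 was 1.12 to 1.94 times sham 5 for the 8 nearer genes. Over the 8 libraries without astaxanthin 1 the nearest were Calml4 with 0.68, Krt18 and Pla2g5 with 0.73, Uncx with 0.79, F5 with 0.80 and Cldn1 with 0.92. Of the 12 nearest over all libraries, 7 were also among the 12 nearest over those 8, and 1, Krt18, among the 12 nearest over the 7 without sham 5 as well.

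**Figure D5:**
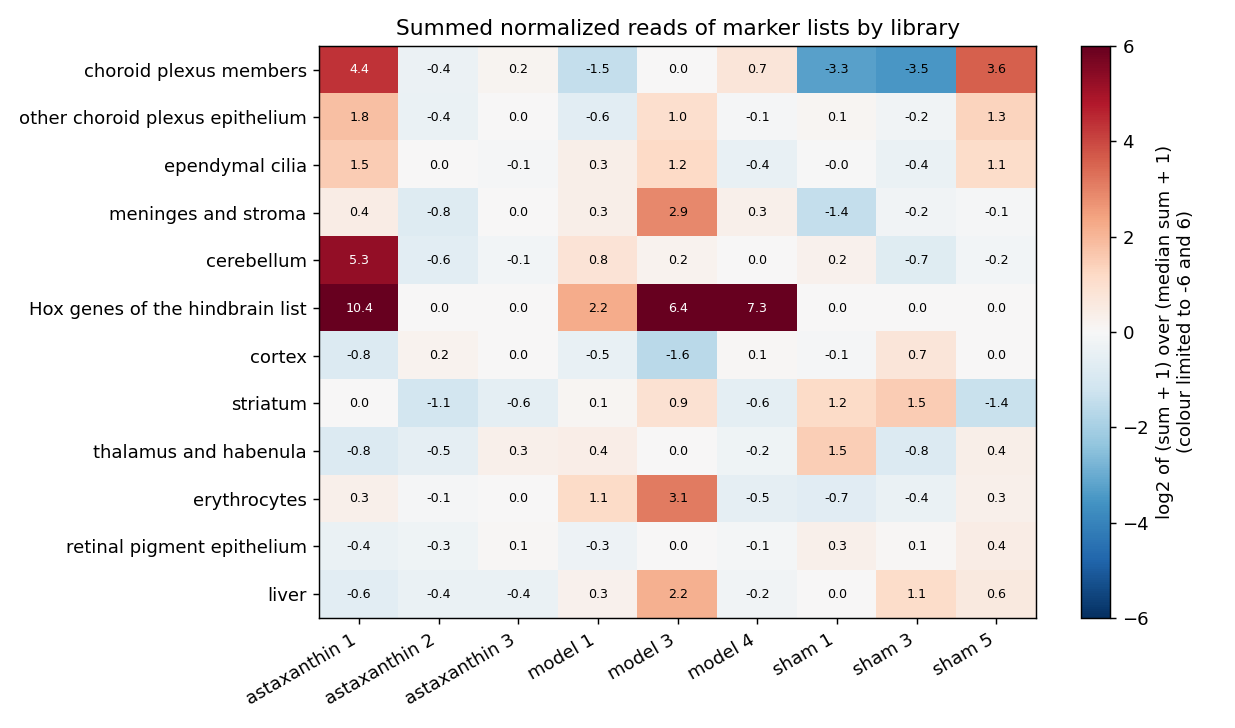
Summed normalized reads of each marker list (rows) in each library (columns), as log2 of the sum + 1 over the median sum + 1 of the 9 libraries, with red above and blue below the median. The members are high in astaxanthin 1 and sham 5, the cerebellum list in astaxanthin 1, and the lists of erythrocytes and of meninges and stroma in model 3.

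Markers of other cells and regions were measured beside the members. The 19 measured genes of ependymal cilia, which line the ventricles next to the choroid plexus, were highest in sham 5 in 13 cases and in astaxanthin 1 in 3, beside 8.56% and 21.2% of all genes. Their summed level was 3207 to 9935 normalized reads in the astaxanthin group, 2525 to 7708 in the model group and 2571 to 7399 in the sham group. Of the 9935 in astaxanthin 1, Dnah11, a motor protein of cilia, gave 4995, and of the 7708 in model 3, Rarres2, the chemokine-like chemerin, gave 6475. In sham 5, 0 of the 19 were listed at 0, while 1 of 19 was at 0 in astaxanthin 1 and 1 to 3 in each of the other 7. The cerebellum list was high in astaxanthin 1 and not in sham 5, where it summed to 8307. The 14 Hox genes of the hindbrain list summed to 1315, 0 and 0 normalized reads in astaxanthin 1, 2 and 3, against 3.72, 81.3 and 154 in model 1, 3 and 4, and 0 in each sham library. The other hindbrain genes did not follow the Hox genes throughout. Slc6a5, a glycine transporter, was highest in astaxanthin 1 with 3957 normalized reads, while Glra1, a glycine receptor subunit, had 218 there, against 1015 and 1065 in model 1 and 4. Of the 10 tested genes of the whole list, 5 were highest in astaxanthin 1, beside 21.2% of all genes. The whole list summed to 5599, 718 and 1812 in astaxanthin 1, 2 and 3, against 3440.2, 610.2 and 2589 in model 1, 3 and 4, and 495, 283 and 1100.5 in sham 1, 3 and 5. Astaxanthin 1 had high cerebellar and Hox genes beside those of the choroid plexus, while sham 5 had no Hox read. Astaxanthin 1 and sham 5 were the highest pair in 11 of the 19 ependymal genes, beside 4.24% of all genes. Sham 5 was the highest in 13 of the 19. The part of the regions and cells sampled in the members' levels was not tested.

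Tissues outside the choroid plexus that share some of the members were followed as well. The 7 measured liver genes summed to 154 to 179 normalized reads in the astaxanthin group, 207 to 1062 in the model group and 238 to 518 in the sham group, with 154 in astaxanthin 1 and 360.3 in sham 5. The 8 genes of the retinal pigment epithelium, which shares Ttr, Otx2 and Kcnj13 with the choroid plexus, summed to 1736 to 2432, 1884 to 2307 and 2421 to 3146 normalized reads in the astaxanthin, model and sham groups. Astaxanthin 1 had the lowest sum of that list and Rpe65, its visual cycle enzyme, had 183 normalized reads there, against 231 in sham 5 and at most 232 in any library. The 7 genes of the kidney, a tissue known for Kl, summed to 113 to 517, 269 to 416 and 357 to 631 normalized reads in the astaxanthin, model and sham groups. The highest sum was in model 3 for the liver list, in sham 5 for the list of the retinal pigment epithelium and in sham 3 for the kidney list. Their part in the members' levels was not tested.

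The 21 measured partners of fluid secretion, such as ion pumps and cotransporters, had 0 genes called by limma in any comparison. At an unadjusted p under 0.05 limma passed 1, 2 and 8 in astaxanthin against model, astaxanthin against sham and model against sham. The shares of all genes were 8.89%, 12.3% and 23.8%. EdgeR called 0 in each, and DESeq2 0, 0 and 5, beside 1.16%, 4.45% and 16.4% of all genes by DESeq2. Of 24 ligands and partners of the members, 21 were tested, and limma called 3 higher in model against sham, beside 3.45% of all genes. Of these 3, Fgfr1 and Clic1 are described. Limma called 0 in the other comparisons, with 6 in astaxanthin against model and 2 in astaxanthin against sham at an unadjusted p under 0.05. At an adjusted p under 0.05, edgeR called 0 and DESeq2 1 in each of these. In model against sham, limma passed 8 of the 21 at an unadjusted p under 0.05, beside 23.8% of all genes. In the same comparison edgeR called 3 and DESeq2 7, beside 4.24% and 16.4% of all genes. Fgfr1, a receptor that klotho works with, had 18726, 16719.5 and 13494 normalized reads in the model libraries, against 4554, 3873 and 7346 in the sham libraries, a log2 difference of 1.68 ± 0.27 (SE, limma, Benjamini-Hochberg adjusted p = 0.018). Clic1, of the family of Clic6, had a log2 difference of 1.67 ± 0.39 (limma, adjusted p = 0.048). In both genes, named because limma called them, every model library was above every sham library, beside 19.0% of all genes. With limma and 1 library left out, the call of Fgfr1 was lost without model 1 (adjusted p = 0.067), sham 1 (0.087) and sham 3 (0.079). That of Clic1 was kept without astaxanthin 1 (adjusted p = 0.028, limma) and without model 4 (0.044) and was lost without any of the other 7, at adjusted p values of 0.066 to 0.16. Without astaxanthin 1 and sham 5, limma called Fgfr1 (adjusted p = 0.014) and gave Clic1 an adjusted p of 0.051. With a replicate block, 0 genes were called in any comparison.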

How the data were processed

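The authors deposited 1 table of genes and 1 of transcripts with signal values, here called normalized reads. FastQC, STAR, StringTie, DESeq2 and the build rn7 are named in the submitters' processing notes, with versions and settings not given in the sources used here. Every deposited value was a whole multiple, within 0.01, of 1 value per library (100% of entries), so whole reads were recovered. Exon lengths (bases) are those the authors deposited in the transcript table.

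Members and lists were chosen with earlier results of these data known. Limma 3.58.1 (R 4.3.3, trend and robust) was fitted to log2(normalized reads + 1) of 17770 genes with at least 0.5 in at least 3 libraries, all 9 libraries, group only, two-sided, Benjamini-Hochberg over all genes, threshold 0.05, and the script was tested on simulated data. Alternatives were edgeR 4.0.16 and DESeq2 1.42.0 on the recovered reads, other pseudocounts, filters and scalings, each library left out, and a replicate block. Genes named were the 9 members, the 12 nearest over 9 libraries and 6 over 8, the 10 highest other choroid plexus genes, and up to 4 highest or any called of each list described. The lists were other choroid plexus epithelium, partners of secretion, ligands and partners, ependymal cilia, meninges and stroma, cerebellum, hindbrain, cortex, striatum, hippocampus, thalamus and habenula, hypothalamus, pineal and subcommissural organ, liver, retinal pigment epithelium, kidney and erythrocytes. The labels do not say what equal library numbers mean, and they were not taken as pairs, so no block entered the comparisons reported. Some named genes of these lists are not reported here.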

Additional observations from a re-analysis of the deposited data

How the results depend on the processing

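Astaxanthin against model called 0 genes with limma, 206 with DESeq2, and 0 to 3 with 1 library left out. Astaxanthin against sham called 49 genes, against 75 with a pseudocount of 0.1, 19 with a pseudocount of 5, 0 with edgeR, 791 with DESeq2, 78 without astaxanthin 1 and sham 5, and 1 to 149 with 1 library left out. Model against sham called 848, against 2920 with DESeq2, 446 without astaxanthin 1 and sham 5, and 72 to 1608 with 1 library left out. With the label number as a replicate block, each of the 3 comparisons called 0 genes and the members' median for astaxanthin against sham was 4.51. Libraries with equal numbers had correlations of -0.12 to 0.07 over genes in their deviations from the group means, and the numbers were not taken as pairs. Single libraries stood far apart within groups, so these correlations cannot show whether equal numbers mark a shared day. The members' sum in astaxanthin 1 was 26.4 times the median of the other 7 libraries, and 13.5 times without Ttr; in sham 5 it was 15.6 times, and 5.90 times without Ttr. Pseudocounts, filters and scalings turned the sign of 0 of the members' 27 log2 differences, edgeR and DESeq2 of 5 each, and leaving out 1 library of 1 to 6. Where a member had 0 reads, up to 3 could have gone unseen. The cause of these shifts was not tested.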

Other observations

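Beside the choroid plexus lists, single marker genes of other tissues passed limma's threshold in model against sham with all 9 libraries. They were 1 of 17 tested genes for meninges and stroma, 1 of 8 for retinal pigment epithelium and 1 of 8 for hippocampus. The liver list had 1 of 6 and the kidney list 1 of 5, while the 9 lists of the next paragraph had 0 of 94. Of all genes, limma called 4.77% in this comparison, so these counts are not read as results about the tissues. Mgp, the matrix Gla protein, a marker of meninges and stroma, had 5172, 35444 and 3895 normalized reads in model 1, 3 and 4, against 504, 755 and 854 in sham 1, 3 and 5, a log2 difference of 3.70 ± 0.72 (SE, limma, adjusted p = 0.029). Its call was lost without model 1 (limma, adjusted p = 0.066), sham 1 (0.12), sham 3 (0.10) or sham 5 (0.080). Rlbp1, a retinal-binding protein that glia also make, had 825, 587 and 658 normalized reads in the model libraries, against 1527, 1379 and 1759.9 in the sham libraries, a log2 difference of -1.18 ± 0.24 (limma, adjusted p = 0.032). It was kept without astaxanthin 1 (limma, adjusted p = 0.022) and without astaxanthin 3 (0.035) and lost without any of the other 7, at 0.051 to 0.12. Dsp, which encodes desmoplakin and is on the hippocampus list, rose by 3.65 ± 0.84 (limma, adjusted p = 0.047), kept without astaxanthin 1 (0.045) and model 4 (0.026) and lost without any of the other 7. Fga, a fibrinogen chain on the liver list, had 118, 63.8 and 67.0 normalized reads in the model libraries, against 0, 8.65 and 0 in the sham libraries (limma, adjusted p = 0.033), not called by edgeR and lost without any model library and without sham 1 or sham 5, at 0.053 to 0.13. Slc12a1, the kidney cotransporter, was listed at 0 in all 3 model libraries, against 16.3, 9.88 and 29.0 normalized reads in the sham libraries, so the size of its fall depends on the pseudocount (limma, adjusted p = 0.017), lost without model 1 or any sham library, at 0.052 to 0.082. These 5 calls were also lost without both astaxanthin 1 and sham 5.

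Limma called 0 genes in all 3 comparisons, with all 9 libraries, in the lists of ependymal cilia, cerebellum, hindbrain, cortex, striatum, thalamus and habenula, hypothalamus, pineal and subcommissural organ, and erythrocytes. By limma, 8, 12 and 10 of their 94 tested genes had an unadjusted p under 0.05. These counts are for astaxanthin against model, astaxanthin against sham and model against sham, beside 8.89%, 12.3% and 23.8% of all genes. At an adjusted p under 0.05, edgeR called 0 in each, and DESeq2 0, 7 and 9 in that order, beside 1.16%, 4.45% and 16.4% of all genes by DESeq2. By library, 6 of 9 cortex genes and 7 of 8 striatum genes were highest in sham 3, the library with the lowest summed level of the members, and 6 of 11 genes of thalamus and habenula were highest in sham 1. The shares of all genes highest in sham 3 and sham 1 were not counted, so these counts have no background beside them. Their bearing on the members was not tested.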
